A study of Mus musculus with 4 samples.

Results

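The collagen chains are the 44 protein-coding genes whose symbol is Col, a type number, the letter a and a chain number, out of 55573 genes in the table (21900 of them protein-coding). By the structure they build, 11 chains are fibrillar, 8 belong to basement membranes and 25 are of other types, which comprise 6 chains of type VI, 9 fibril-associated chains, 4 transmembrane chains, 3 short chains, the anchoring fibril chain Col7a1, and Col26a1 and Col28a1. Ribosome-protected fragments, the stretches of mRNA shielded by a ribosome from nuclease, were sequenced from primary mouse myoblasts, the proliferating precursors of muscle fibres. The cells came from digested hind-limb muscle of 3-week-old mice and were grown for 2 days in medium with FGF. Libraries 1 and 2 of the WT group came from littermates that keep eIF5A, and libraries 1 and 2 of the eIF5A-KO group from mice in which tamoxifen-activated, Pax7-driven Cre deletes a floxed eIF5A. The study's methods give the control genotype in 2 ways, with the Cre allele in one place and without it in another, so it is not known whether the WT cells carry the Cre. In a digest of whole muscle, cells that never switched on Pax7 keep an intact gene in either group. Values are RPKM, that is, fragments scaled for the length of the gene's exons and the size of the library, and each group has 2 libraries.

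Collagens are secreted proteins of 3 chains wound into a triple helix, in which the sequence repeats as glycine followed by X and Y (Gly-X-Y), and proline or hydroxyproline often stands at X and Y. Fibrillar chains assemble into the rope-like fibrils of the interstitial matrix, type IV chains into the sheet under each muscle fibre, and type VI chains into beaded microfilaments that lie next to that sheet in muscle. In skeletal muscle the interstitial fibroblast is the best-known maker of collagen. The factor eIF5A, which carries the modified lysine hypusine, helps ribosomes to join residues that react slowly, of which runs of proline are the classic example.

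The proline of these chains is laid out in 2 patterns, and both are shown here because proline-rich products are of interest for eIF5A. In the first pattern, Gly-Pro-Pro triplets repeat within the helix. The 4 windows below are the 15-codon stretches of 1 exon with the densest Gly-Pro-Pro repeats in 4 chains, read 5′ to 3′ in frame on the coding strand of GRCm38, with proline codons in capitals.
Col1a1, chr11:94950291-94950335, plus strand, exon 48: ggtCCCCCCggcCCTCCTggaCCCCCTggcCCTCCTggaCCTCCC
Col3a1, chr1:45325360-45325404, plus strand, exon 6: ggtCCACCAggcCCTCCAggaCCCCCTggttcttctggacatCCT
Col4a1, chr8:11235114-11235158, minus strand, exon 21: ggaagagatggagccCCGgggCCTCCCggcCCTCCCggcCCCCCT
Col6a1, chr10:76717813-76717857, minus strand, exon 15: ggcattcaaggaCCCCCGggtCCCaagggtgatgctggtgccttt
In the window of Col1a1, 10 of 15 codons encode proline, against 7 of 15 in those of Col3a1 and Col4a1 and 3 of 15 in that of Col6a1. Even in this densest window of Col6a1 the Gly-Pro-Pro triplet does not repeat.

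In the second pattern, 3 or more prolines stand in a row, which by construction cannot lie inside a Gly-X-Y repeat. The 5 windows below hold the runs of Col4a2, Col18a1, Col6a3 and Col5a1, the 4 of the 12 chains with a mean of at least 5 RPKM that have one, in the same format.
Col4a2, chr8:11437598-11437642, plus strand, exon 33: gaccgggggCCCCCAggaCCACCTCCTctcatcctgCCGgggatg
Col18a1, chr10:77112339-77112386, minus strand, exon 1: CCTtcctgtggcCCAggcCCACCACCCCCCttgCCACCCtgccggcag
Col18a1, chr10:77085340-77085384, minus strand, exon 5: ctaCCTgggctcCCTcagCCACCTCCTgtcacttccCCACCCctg
Col6a3, chr1:90773013-90773443, minus strand, across exons 41 and 42: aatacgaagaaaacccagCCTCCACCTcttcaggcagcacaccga
Col5a1, chr2:27951389-27951433, plus strand, exon 7: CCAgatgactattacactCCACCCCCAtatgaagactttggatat
The run in exon 1 of Col18a1 has 4 prolines, a length that no run in the 44 chains exceeded and that its relative Col15a1 also reached.

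Over the 44 chains the median proline content was 16.2% of residues (4.50% in Col6a6 to 23.5% in Col4a5), against a median of 5.26% over the proteins of 21571 coding genes. Of the chains, 35 lay above the 95th percentile of coding genes, which is 11.2%. The chains held 1214 Gly-Pro-Pro triplets, 22.8% of the 5333 in all coding genes, and 98.5% of them lay within Gly-X-Y repeats. Runs of 3 or more prolines were sparser, with 17 runs in 15 chains (34.1%), while 19.95% of coding genes hold at least one. The classes differed in this respect. The median number of Gly-Pro-Pro triplets was 42 for basement membrane chains, 37 for fibrillar chains and 4 for type VI chains, in which Gly-X-Y repeats made up a median of 14.3% of the protein and proline 6.38%.

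The libraries held 642429 to 704006 reads, recovered as whole numbers from the RPKM values, and protein-coding genes took 41.5% and 33.9% of them in WT and 65.4% and 59.2% in eIF5A-KO. Eif5a, the targeted gene, stood at 34.9 and 65.2 RPKM in WT and at 60.3 and 59.4 RPKM in the libraries labelled eIF5A-KO (limma log2 fold change 0.32, SE 0.48, adjusted p = 0.839), so its signal, taken over all exons of the gene, was not reduced in them and the direction of every difference below rests on the labels. The summed signal of 10 myogenic markers was 345 and 203 RPKM in WT and 102 and 123 RPKM in eIF5A-KO, and all 9 tested markers lay below 0 in log2 fold change. The summed signal of 10 fibroblast markers was 581 and 419 RPKM in WT and 967 and 457 RPKM in eIF5A-KO. Of the 9 tested fibroblast markers, 7 lay above 0 and 2 below. Both eIF5A-KO libraries were above both WT libraries in 2 of them and below in 2. Endothelial markers summed to 255 and 390 RPKM in WT and 354 and 444 RPKM in eIF5A-KO, and pericyte and smooth muscle markers to 161 and 128 RPKM against 102 and 113 RPKM. Schwann cell markers summed to 18.4 to 39.7 RPKM and immune markers to 25.0 to 38.5 RPKM with C1qa at 0, and chondrocyte markers to 2.81 to 16.3 RPKM with Matn1 and Matn3 at 0. Markers of several cell types were thus present, and a change in the number of cells of a type and a change of signal per cell cannot be told apart.

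Of the 44 chains, 18 reached a mean of 1 RPKM over the 4 libraries and were tested, namely 7 fibrillar, 4 basement membrane and 7 other chains. A further 21 had 2 to 21 reads in all (median 6) and means of 0.0599 to 0.798 RPKM. Among these were Col2a1, Col11a1 and Col11a2, fibrillar chains known from cartilage. Col6a4, Col6a5, Col4a6, Col9a1 and Col10a1 had no read in any library, which with a limit of 3 reads per library allows up to 0.351 to 2.03 RPKM depending on gene length and library. The tested chains had 19 to 1872 reads each, with a median of 347, against a median of 54 reads over all 11363 tested genes. Counting error and floors cover the sampling of reads only, since reads were not marked as separate molecules.

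The basement membrane pair led the list. Col4a1 and Col4a2, the chains of the type IV network found in every basement membrane, lie head to head on chromosome 8 (chr8:11198423-11312826, minus strand, and chr8:11312805-11449287, plus strand, GRCm38) and share 22 bases of exon. Col4a1 stood at 112.0 and 79.9 RPKM in WT and at 98.7 and 69.5 RPKM in eIF5A-KO. Col4a2 stood at 80.4 and 68.9 RPKM in WT and at 79.0 and 67.9 RPKM in eIF5A-KO. In both chains library 1 was above library 2 in either group, and the groups overlapped. Col18a1 (chr10:77052178-77166548, minus strand), a basement membrane collagen that carries sugar chains and yields the fragment endostatin, stood at 30.0 and 20.6 RPKM in WT and at 27.8 and 16.0 RPKM in eIF5A-KO, with the same overlap and the same order of libraries. Its relative Col15a1 was far lower, at 2.35 and 1.00 RPKM in WT and 5.21 and 2.34 RPKM in eIF5A-KO.

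The fibrillar chains followed. Col3a1 (chr1:45311538-45349706, plus strand), the single chain of type III collagen, stood at 66.7 and 25.7 RPKM in WT and at 50.2 and 23.5 RPKM in eIF5A-KO, so the libraries of 1 group differed more than the groups did. Col1a2 (chr6:4504814-4541544, plus strand) and Col1a1 (chr11:94936224-94953042, plus strand) encode the chains of type I collagen, the main fibril of the interstitial matrix. Col1a2 stood at 39.1 and 28.7 RPKM in WT and at 56.3 and 34.6 RPKM in eIF5A-KO, and Col1a1 at 38.4 and 29.1 RPKM in WT and at 55.8 and 33.4 RPKM in eIF5A-KO. The highest value of both was in eIF5A-KO library 1, while eIF5A-KO library 2 fell between the WT libraries.

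Type V chains, which are built into type I fibrils and limit their width, were each different. Col5a2 (chr1:45374321-45503282, minus strand) stood at 15.2 and 18.4 RPKM in WT and at 32.1 and 19.2 RPKM in eIF5A-KO. Col5a1 (chr2:27886425-28039514, plus strand) stood at 13.7 and 4.75 RPKM in WT and at 13.9 and 5.40 RPKM in eIF5A-KO. Col5a3 (chr9:20770050-20815067, minus strand) stood at 8.28 and 10.6 RPKM in WT and at 8.58 and 5.45 RPKM in eIF5A-KO. Both eIF5A-KO libraries were above both WT libraries for Col5a2 alone among the 3 chains, and there by a margin of under 1 RPKM between the nearest libraries. The remaining tested fibrillar chain, Col24a1, had 25 reads and a mean of 1.04 RPKM.

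Among the other chains type VI was the main one. Col6a1 (chr10:76708792-76726168, minus strand) stood at 33.3 and 26.2 RPKM in WT and at 48.3 and 35.9 RPKM in eIF5A-KO. Its neighbour Col6a2 (chr10:76595762-76623630, minus strand) stood at 6.97 and 7.65 RPKM in WT and at 11.3 and 7.58 RPKM in eIF5A-KO. Col6a3 (chr1:90765923-90843971, minus strand), the largest chain of the type VI trimer, stood at 9.98 and 6.21 RPKM in WT and at 46.9 and 12.1 RPKM in eIF5A-KO, from 72, 35, 509 and 117 reads in that order. The eIF5A-KO libraries were above both WT libraries for Col6a1 and Col6a3, and for Col6a3 they differed from each other by 3.87 times. The last tested chains were the fibril-associated Col16a1, Col12a1 and Col20a1 and the short chain Col8a1, with means of 1.30 to 4.79 RPKM.

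**Figure D1:**
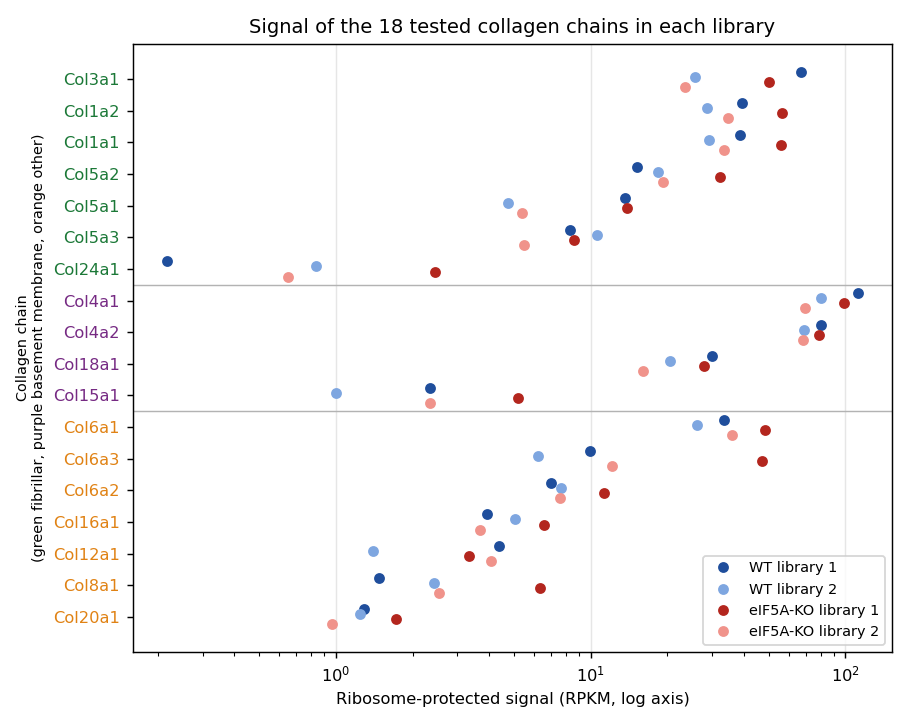
Ribosome-protected signal in RPKM on a log axis for the 18 tested collagen chains, 1 point per library, with chains grouped by class and ordered by mean level. Col4a1 and Col4a2 have the highest means, at 90.0 and 74.1 RPKM, and in Col6a3 eIF5A-KO library 1 stands apart at 46.9 RPKM.

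Neighbours in this order of means were often closer than their spread between libraries. Col1a2 and Col1a1, with means of 39.7 and 39.2 RPKM, overlapped in range, as did Col6a1 at 35.9 RPKM. Col5a1, Col6a2 and Col5a3, with means of 9.43, 8.37 and 8.23 RPKM, overlapped as well. RPKM divides by the length of all exons of a gene, which for Col1a2 is 12426 bases with 4116 coding, and for Col1a1 6563 bases with 4359 coding. Per kilobase of coding sequence Col1a2 moved from place 4 to place 2, at 119.7 against 134.2 for Col4a1 and 95.7 for Col4a2, while Col1a1 kept its place at 59.0.

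The comparison of eIF5A-KO with WT asks whether loss of eIF5A goes with a change in the ribosome-protected signal of these proline-rich products. No chain passed the test. At an adjusted p under 0.05, limma on log2(RPKM + 1) called 0 of 18 chains in either direction, where 0.0968% of all tested genes were called lower and 0.0088% higher. None of those calls was among the 9877 tested protein-coding genes, the class of all collagen chains, of which 300 were lower and 290 higher at p under 0.05 before adjustment. Without adjustment, at p under 0.05, it also called 0 of 18, beside 4.46% of all genes on the lower and 2.86% on the higher side, and limma-voom on the recovered reads called 0 at the adjusted threshold and 1, Col6a3, at the unadjusted one. Of the 18 log2 fold changes 13 were above 0 and 5 below, with a median of 0.33, against a median of 0.00 over all tested genes and 0.05 over protein-coding genes. With libraries scaled to equal totals, of all reads or of protein-coding reads, 13 of 18 were above the median of all tested genes. That median itself moved to 0.47 with totals of all reads made equal. Quantile normalization gave 14 of 18 above 0, where the median of all tested genes was 0.0575. Removing a trend with coding GC content gave 17 of 18 above 0 and a median of 0.57, a minimum mean of 5 RPKM gave 7 of 12 and 0.20, and taking every chain with reads gave 22 of 39 and 0.0313. Without eIF5A-KO library 1 the median was 0.02 with 9 of 18 above 0, without WT library 2 it was 0.17, without WT library 1 0.41, and without eIF5A-KO library 2 0.63, so its size depends on single libraries. Since each group has 2 libraries, 0.333 is the smallest two-sided p that exact permutation can give for 1 chain.

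By class, 5 of 7 fibrillar chains were above 0, with a median log2 fold change of 0.36. So were 1 of 4 basement membrane chains (median -0.11) and 7 of 7 other chains (median 0.39). With every gene above 0 the medians were 0.23, -0.0242 and 0.0281 in that order. With a minimum mean of 5 RPKM they were 0.22, -0.19 and 0.48. Col24a1, counted among the 5, averaged 0.53 RPKM in WT and 1.55 RPKM in eIF5A-KO. It thus passed the filter only through the group where it was high. Col11a2, at 1.10 RPKM in WT and 0.27 RPKM in eIF5A-KO, did not pass. The fibrillar median ran from -0.0025 without eIF5A-KO library 1 to 0.72 without eIF5A-KO library 2, and was 0.16 without WT library 2. The basement membrane median turned to 0.0684 without WT library 1 and to 0.12 without eIF5A-KO library 2. With equal read totals it was 0.0314 relative to all genes. With quantile normalization it was 0.0215, which is above 0 but below the median of all genes there, 0.0575. It was -0.28 without WT library 2 and -0.29 without eIF5A-KO library 1. It turned to 0.26 when a trend with coding GC content was removed, so neither its sign nor that of the fibrillar median was stable. Coding GC content was above the median of tested coding genes (53.2%) in 17 of the 18 chains, which had a median of 58.9%. The largest fold change was that of Col6a3, at 1.49 (SE 0.68, 95% interval -0.18 to 3.17, limma adjusted p = 0.676). It was 0.56 without eIF5A-KO library 1 and 2.43 without eIF5A-KO library 2. Next came Col15a1 at 0.81 (SE 0.53) and Col8a1 at 0.80 (SE 0.51), with 54 and 77 reads. The type VI chains Col6a1 and Col6a2 were at 0.48 (SE 0.42) and 0.30 (SE 0.39).

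Among the abundant fibrillar chains the log2 fold changes were 0.55 for Col5a2, 0.39 for Col1a2, 0.36 for Col1a1, 0.09 for Col5a1, -0.27 for Col3a1 and -0.40 for Col5a3. Among the basement membrane chains they were -0.02 for Col4a2, -0.19 for Col4a1 and -0.22 for Col18a1. The interval of Col4a2, the most tightly measured of these 3, ran from -1.09 to 1.04, so a change of up to about 2-fold either way lies within it, in a chain with 1373 reads. The 4 chains with both eIF5A-KO libraries above both WT libraries were Col5a2, Col6a1, Col6a3 and Col8a1, and no chain had both below. Such separation was seen in 20.1% of all tested genes upward and in 20.3% downward, and 4 of 18 is near that background.

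**Figure D2:**
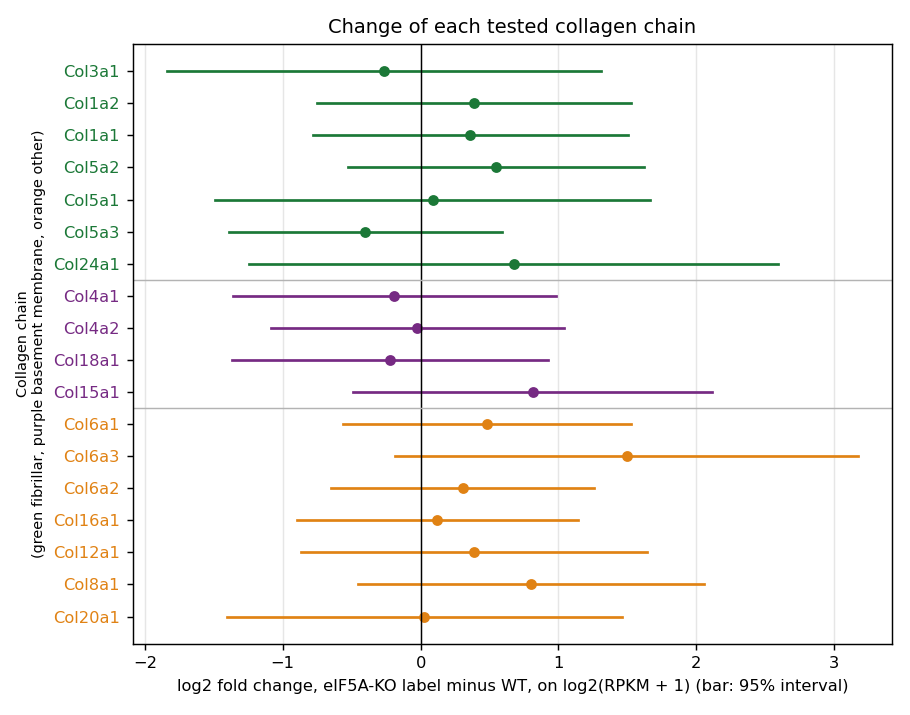
Log2 fold change of eIF5A-KO over WT on log2(RPKM + 1) for each of the 18 tested collagen chains, with its limma 95% interval as a bar and the class as colour. The interval of every chain includes 0, and that of Col6a3, from -0.18 to 3.17, reaches farthest to the right.

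As a share of the reads of protein-coding genes, all collagen chains together took 0.853% and 0.583% in WT and 0.911% and 0.582% in eIF5A-KO. The 95% Wilson intervals were 0.819 to 0.888% and 0.551 to 0.615% in WT, and 0.884 to 0.939% and 0.559 to 0.607% in eIF5A-KO. Library 1 thus differed from library 2 by more than counting error in either group, while the group means of 0.718 ± 0.191% (SD, n = 2) and 0.747 ± 0.232% (SD, n = 2) were within the spread. Taken over all reads the share was 0.354% and 0.197% in WT and 0.595% and 0.345% in eIF5A-KO, which turns a log2 ratio of 0.06 into 0.77. Over protein-coding reads that ratio was 0.36 without WT library 1, -0.19 without WT library 2, -0.30 without eIF5A-KO library 1 and 0.34 without eIF5A-KO library 2, so its sign depends on single libraries. In each library the share over all reads is the share over protein-coding reads multiplied by the fraction of reads on protein-coding genes. That fraction, given above, was higher in both eIF5A-KO libraries, and why it was higher was not tested.

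Within the collagen reads the classes were unevenly placed. Fibrillar chains took 45.7% and 41.6% in WT and 44.9% and 42.4% in eIF5A-KO. Basement membrane chains took 42.0% and 44.9% in WT and 32.4% and 39.6% in eIF5A-KO. Type VI chains took 8.58% and 9.38% in WT and 18.8% and 13.2% in eIF5A-KO. The fibrillar share overlapped between groups, while the basement membrane share was lower and the type VI share higher in both eIF5A-KO libraries. Without Col6a3 the basement membrane share was 43.4% and 46.1% in WT and 36.9% and 41.8% in eIF5A-KO, and that of type VI 5.62% and 6.81% in WT and 7.52% and 8.37% in eIF5A-KO. These shares are parts of 1 whole and stand as a description without a test.

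**Figure D3:**
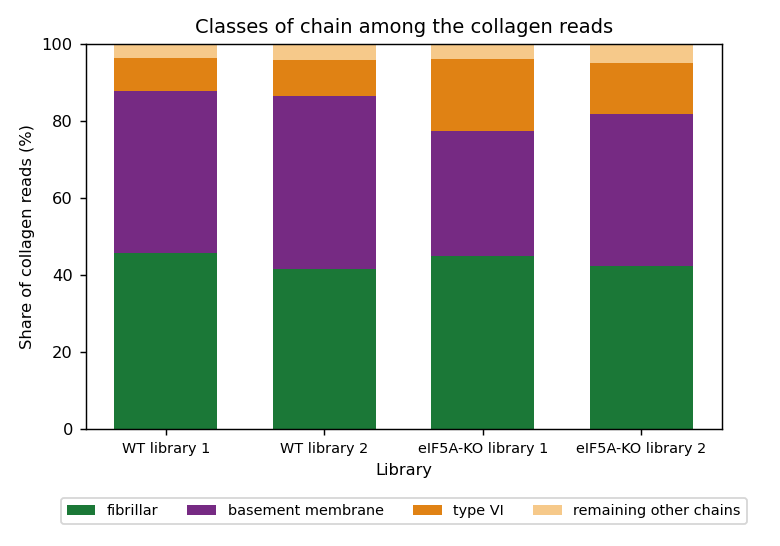
Share of all collagen reads, in percent, taken by fibrillar, basement membrane, type VI and the remaining chains in each of the 4 libraries, stacked to 100%. The fibrillar share stays between 41.6% and 45.7%, and the type VI share is 18.8% and 13.2% in the eIF5A-KO libraries against 8.58% and 9.38% in WT.

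Differences between libraries of 1 group were large and ran the same way in many chains. Library 1 was above library 2 in both groups for 11 of 18 chains, against 23.8% of all tested genes. Library 2 was above library 1 in both groups for 0 of 18 chains, against 25.5% of all tested genes. The 11 chains were all 4 basement membrane chains, 4 of 7 fibrillar chains (Col1a1, Col1a2, Col3a1 and Col5a1) and 3 of 7 other chains. Between the WT libraries the ratio was 2.59 for Col3a1, 2.88 for Col5a1 and 1.40 for Col4a1, and between the eIF5A-KO libraries it was 2.14, 2.58 and 1.42 for the same chains. Col4a2 varied little, at 1.17 and 1.16. Of the tested fibroblast markers, 6 of 9 likewise had library 1 above library 2 in both groups, their sum followed the same order, and their part in the collagen pattern was not tested. Over all tested genes the differences between libraries 1 and 2 in the 2 groups had a correlation of 0.0575 across genes, which are not independent replicates.

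**Figure D4:**
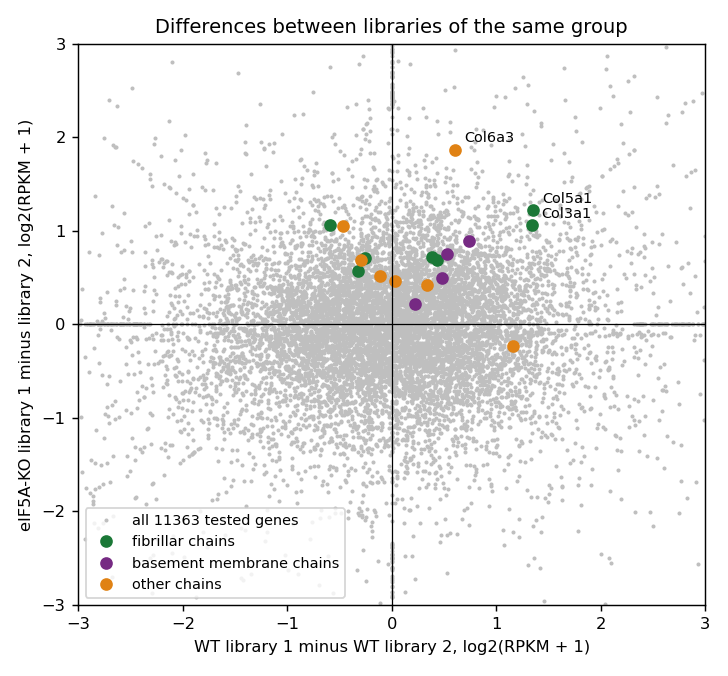
Difference of library 1 from library 2 on log2(RPKM + 1) in WT (horizontal) and in eIF5A-KO (vertical), with all 11363 tested genes in grey and the 18 tested collagen chains coloured by class (the axes stop at 3 on either side, which leaves out 570 grey points). The chains lie above the horizontal line except Col12a1, and 11 of 18 are at the upper right, none at the lower left.

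Partner chains of 1 trimer give ratios within a library, in which depth and scaling cancel. Type I collagen is made of a pair of Col1a1 chains and a single Col1a2 chain. The ratio of Col1a1 to Col1a2 in RPKM was 0.982 and 1.01 in WT and 0.991 and 0.966 in eIF5A-KO, with 95% exact binomial intervals of 0.802 to 1.20, 0.776 to 1.32, 0.866 to 1.13 and 0.801 to 1.16. The 4 values agree within counting error, although the level of either chain differed between libraries by up to 1.67 times in eIF5A-KO. Per coding length the same ratio averaged 0.493 ± 0.0101 (SD, n = 4), so its size, unlike its constancy, depends on the length used.

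The ratio of Col4a1 to Col4a2, which pair at 2 to 1 in the common type IV trimer, was 1.39 and 1.16 in WT and 1.25 and 1.02 in eIF5A-KO by RPKM, and averaged 1.39 per coding length. The ratio of Col6a1 to Col6a2 was 4.78 and 3.42 in WT and 4.29 and 4.73 in eIF5A-KO, and averaged 2.29 per coding length. In either ratio the groups overlapped. Col5a1 to Col5a2 varied more, at 0.899 and 0.259 in WT and 0.433 and 0.281 in eIF5A-KO. Col6a3 to Col6a1, which join in 1 trimer, varied by the largest factor of the 5 ratios, at 0.300 and 0.237 in WT and 0.971 and 0.337 in eIF5A-KO. The interval of eIF5A-KO library 1, 0.821 to 1.15, lay apart from those of the other libraries, of which the highest reached 0.437, so the departure of Col6a3 in that library was larger than counting error. This was not particular to Col6a3. For Col5a1 to Col5a2 the interval of WT library 1, 0.647 to 1.24, lay above those of the other libraries, of which the highest reached 0.543. For Col4a1 to Col4a2 the interval of WT library 1, 1.21 to 1.61, lay apart from that of eIF5A-KO library 2, 0.887 to 1.18.

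Proline content was set beside the fold changes as a description. The 9 tested chains with more proline (16.1% to 22.7%) were at a median of 0.12 on the log2 scale, with 6 above 0, and the 9 with less (7.10% to 15.9%) a median of 0.39 with 7 above 0. The 7 tested chains with a run of 3 or more prolines had a median of 0.09 with 5 above 0, and the 11 without one a median of 0.36 with 8 above 0. Across the 18 chains, which share libraries and differ in GC content and length, Spearman's rho of the fold change was -0.32 with the percentage of proline, -0.56 with the number of Gly-Pro-Pro triplets and -0.59 with coding GC content. Without Col6a3 these were -0.19, -0.48 and -0.53 over 17 chains. Gly-Pro-Pro number and GC content thus went with the fold change to a like degree, and their parts cannot be told apart here. Col1a1, with the densest window printed above and 46 triplets, was at 0.36, while Col5a3, also with 46 triplets, was at -0.40. The 2 chains with a run of 4 prolines lay on either side of 0, Col18a1 at -0.22 and Col15a1 at 0.81, and Col6a3, with a run of 3, was at 1.49.

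**Figure D5:**
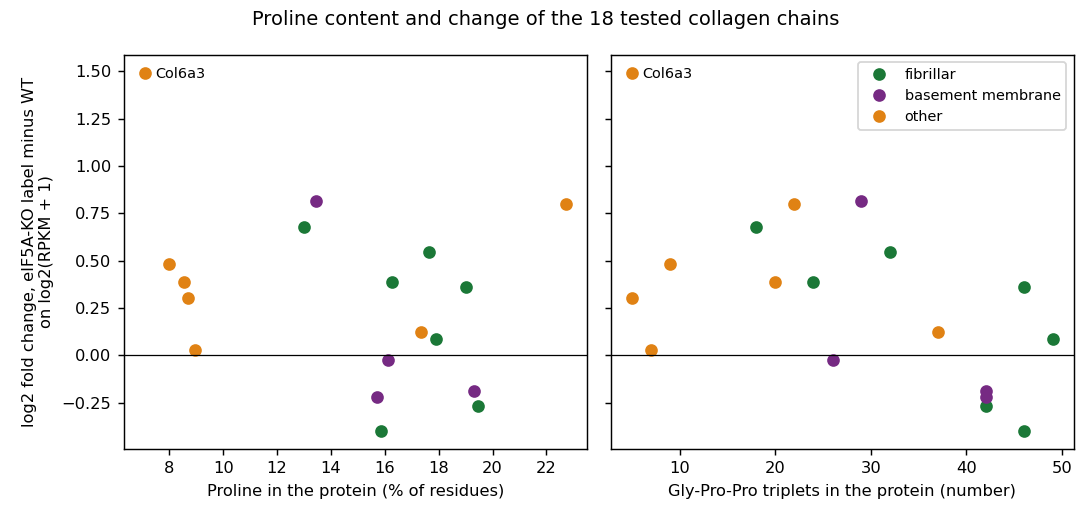
Log2 fold change of eIF5A-KO over WT on log2(RPKM + 1) of the 18 tested collagen chains against the percentage of proline in the protein (left) and the number of Gly-Pro-Pro triplets (right), coloured by class. The 3 chains with 46 or more triplets (Col1a1, Col5a1 and Col5a3) lie on both sides of 0, and Col6a3 with 5 triplets is highest at 1.49.

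Making a collagen needs a set of enzymes and chaperones, of which 33 of 36 listed genes were tested. Of these 24 had log2 fold changes above 0 and 9 below, with a median of 0.25, and limma called 0 at the adjusted threshold and 1 of 33 in the upward direction when p was not adjusted, where 2.86% of all tested genes were called. That gene was Loxl3, a lysyl oxidase-like enzyme of collagen cross-linking, at 11.2 and 9.68 RPKM in WT and 22.5 and 20.2 RPKM in eIF5A-KO (log2 fold change 0.97, SE 0.38, limma adjusted p = 0.672). Both eIF5A-KO libraries of Loxl3 were above both WT libraries, as in 20.1% of all tested genes. Serpinh1, the collagen chaperone HSP47, had the highest mean level of the list and stood at 158.2 and 125.1 RPKM in WT and at 232.4 and 112.0 RPKM in eIF5A-KO.

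P4hb and P4ha1, the beta subunit and the most abundant of 3 alpha subunits of prolyl 4-hydroxylase, which hydroxylates the proline of the helix, were highest in eIF5A-KO library 1. P4hb stood at 109.6 and 104.6 RPKM in WT and at 224.3 and 129.8 RPKM in eIF5A-KO (log2 fold change 0.67, SE 0.50). P4ha1 stood at 21.8 and 27.3 RPKM in WT and at 88.4 and 34.3 RPKM in eIF5A-KO (log2 fold change 1.15, SE 0.56, adjusted p = 0.676). Neither passed the test, and in P4ha1 as in Col6a3 library 1 of eIF5A-KO stood apart. Loxl1, another cross-linking enzyme, stood at 58.9 and 55.4 RPKM in WT and at 45.8 and 37.6 RPKM in eIF5A-KO (log2 fold change -0.45, SE 0.42).

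By step, 8 of 10 genes of prolyl hydroxylation were above 0 (median 0.46), 4 of 4 tested genes of lysyl hydroxylation and glycosylation (median 0.38), 6 of 8 of chaperones and export (median 0.15), 3 of 6 of propeptide removal (median 0.10) and 3 of 5 of cross-linking (median 0.02). Among 8 listed receptors 7 were tested, 3 above 0 and 4 below, with 0 calls at the adjusted threshold and, at the unadjusted one, 1 higher and 1 lower, where 2.86% and 4.46% of all tested genes were called. Itga2, the alpha-2 integrin subunit that binds collagen, stood at 3.49 and 7.14 RPKM in WT and at 20.2 and 11.5 RPKM in eIF5A-KO (log2 fold change 1.43, SE 0.49, limma adjusted p = 0.668). Ddr1, a receptor tyrosine kinase for collagen, stood at 10.4 and 6.22 RPKM in WT and at 2.54 and 3.63 RPKM in eIF5A-KO (log2 fold change -1.17, SE 0.42, limma adjusted p = 0.672). The groups of neither receptor overlapped, as in 20.1% of all tested genes in the direction of Itga2 and 20.3% in that of Ddr1.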

How the data were processed

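Ribosome profiling of 4 libraries of primary myoblasts was used, 2 labelled WT and 2 labelled eIF5A-KO. The sample titles name polysome sequencing, while the protocol describes RNase I digestion and protected fragments, and cycloheximide is given as 1 min in one place and longer in another. The authors deposited RPKM values per gene, made with TopHat2 and HTSeq on mm10 with Ensembl 97 annotation (tool versions not given in the sources used here). Multiplying RPKM by gene length gave whole reads for 100% of values (tolerance 0.01), with the authors' library sizes of 602863 and 471136 for WT and 906990 and 807705 for eIF5A-KO, which are not the totals of the table. Reads were used for shares and intervals.

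Testing was limited to genes whose mean reached 1 RPKM, and was done with limma 3.58.1 (trend=TRUE, R 4.3.3) on log2(RPKM + 1), with Benjamini-Hochberg adjustment over all tested genes, so fold changes understate those of low genes. Nothing says whether the libraries of a group came from separate mice, so p-values measure the spread between these libraries. Coding sequences came from GENCODE M21 on GRCm38, in which all 44 chains had the coordinates of the file, as the longest complete coding transcript, and proteins were translated from them. Chains with a mean of at least 5 RPKM or an unadjusted p under 0.05 and partners of a ratio are named, as are, from the processing and receptor lists, genes at an unadjusted p under 0.05 and the 4 highest processing genes. The members and lists were chosen with earlier results of these data known. Alternatives changed the pseudocount, the filter, the scaling, the variance trend, a GC trend and the libraries used, and a replicate block and limma-voom on recovered reads were also run. Same-numbered libraries of the groups had deviations that correlated at 0.0575, and the labels do not tie them to a shared animal or day. Apart from Col4a1 and Col4a2, exons of a tested chain shared bases with a gene that had reads in 1 case, Col20a1. Whether strand was used in counting is not given in the sources used here.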

Additional observations from a re-analysis of the deposited data

How the results depend on the processing

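No collagen chain passed the adjusted threshold under any of the 17 settings, the lowest adjusted p being 0.289 (Col6a3, libraries scaled to the same sum). At an unadjusted p under 0.05 no chain was lower, and 1 chain, Col6a3, was higher with at least 20 reads, with protein-coding genes only, with limma-voom on recovered reads, with the GC trend removed, with the replicate block and without eIF5A-KO replicate 2, so that leaving out libraries gave 0 to 1. With the same sum 2 chains were higher (Col5a2 and Col6a3). The same sum moved the median of all genes by 0.47. Log2 changes under the same-sum scalings are given relative to the median of all genes, and those under quantile normalization are not.

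Over all genes the 11 lower and 1 higher calls became 43 and 0 with limma-voom (610 and 316 at an unadjusted p under 0.05). They became 0 and 0 with a pseudocount of 0.1 (495 and 313), every gene above 0 (533 and 403), a minimum of 5 RPKM (327 and 178), at least 20 reads (495 and 362), the same sum (170 and 1684), protein-coding genes only (417 and 418), trend=FALSE (497 and 285), the GC trend removed (335 and 334) and the replicate block (509 and 318), and without any 1 library (225 to 791 and 205 to 809).

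The median of the basement membrane chains became 0.26 with the GC trend removed (-0.29 to 0.12 without 1 library, with -0.0025 to 0.72 for the fibrillar chains), and that of the other chains 0.0281 with every gene above 0. The log2 ratio of collagen shares became 0.77 over all reads and 0.15 without Col4a1, and ran from -0.30 to 0.36 without 1 library. The log2 ratio of the type VI share of collagen reads, 0.83, became 0.35 without Col6a3, 0.74 without Col4a1 and 0.55 per coding length, and 0.55 to 1.06 without 1 library. This type VI ratio and all these settings of it were chosen after seeing the data. Per coding length the chain ratios were 0.493 for Col1a1 to Col1a2, 1.39 for Col4a1 to Col4a2 and 2.29 for Col6a1 to Col6a2. The median proline content within Gly-X-Y repeats was 21.8%.

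Among Eif5a and the 12 chains with a mean of at least 5 RPKM (the 6 lower tested chains are not listed), signs turned for Col4a1 (0.15), Col4a2 (0.37), Col18a1 (0.14) and Col5a3 (0.0392) with the GC trend removed, and for Col4a2 with the same sum (0.11) and with quantile normalization (0.0486). The quantile value is measured from 0 and lies below the median of all genes in that setting, 0.0575. Leaving out 1 library turned the sign of 7 of these 13 genes, with ranges of -0.44 to 0.0599 for Col4a1, -0.13 to 0.0856 for Col4a2, -0.94 to 0.40 for Col3a1 and -0.60 to 0.16 for Col18a1 (above 0 without WT replicate 1 or eIF5A-KO replicate 2), -0.0025 to 0.72 for Col1a1 (below 0 without eIF5A-KO replicate 1), -0.59 to 0.76 for Col5a1 (below 0 without WT replicate 2 or eIF5A-KO replicate 1) and -0.12 to 0.76 for Eif5a (below 0 without WT replicate 1). In these fits the lone library is assumed to vary like the other group, and 1 degree of freedom remains. The causes were not tested.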
